A study of Mus musculus with 360 samples.

Results

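Myc, the gene of the transcription factor MYC, was followed in C1498 cells, a mouse leukemia cell line, after a short heat shock. The row was chosen by its symbol, 1 of 24781 genes in the expression table, because of its levels over the groups, so those levels are given as a description and no test was run on them. MYC binds DNA together with its partner MAX and raises the transcription of genes for ribosome assembly, metabolism and the cell cycle. Its RNA and protein are short-lived in mouse and human cells, and it is overactive in many leukemias and lymphomas. In the genome build mm10 with the GENCODE M21 annotation, Myc lies on the plus strand at chr15:61985391-61990374, as a protein-coding gene with 8 annotated transcripts.

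The heated cells had been held at 45 °C for 10 min and were picked at 4 times after the end of heating. Of 309 heated cells, 13 were of the time 1 h, 52 of 10 h and 21 of 15 h, and all others were of 5 h, which held 61.9% of all cells of the series. A further 6 cells of the 45 °C arm were picked at -1 h, before heating. The control arm, kept at 37 °C, gave 11 cells each at -1 h, 1 h and 15 h and 6 cells each at 5 h and 10 h. Together these were 360 cells in 10 groups, of which 6 groups with 51 cells were unheated. Cells were imaged and picked singly by an automated instrument, and each was sequenced as its own library with molecular barcodes. No label names a culture, so every group was read as 1 sample without a test between groups, and the 95% intervals below cover counting error only, not the spread between cells or cultures.

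The median cell held between 18741 UMIs (molecules counted once each; 45 °C, 10 h) and 40544 UMIs (37 °C, -1 h). The 3 general leukocyte markers had UMIs in the heated and the unheated cells alike, with summed levels of 1281.8 to 1996.1 CPM (a group's UMIs scaled to a total of 1000000) in heated groups and 1686 to 2045.9 CPM in unheated ones. The line is labelled as acute myeloid leukemia, but 8 of 8 myeloid markers had 0 UMIs in the unheated cells, and in the heated cells 6 of them (S100a8, Csf1r, Spi1, Kit, Lyz2 and Elane) had 0 too. Of 7 T cell markers in the table, 6 had UMIs in the heated cells and 5 in the unheated cells, with summed levels of 314 to 470 CPM and 363 to 469.1 CPM. The cells are therefore called C1498 cells here.

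Myc RNA stood low in the cells picked 5 and 10 h after heating and was back near the level of unheated cells at 15 h. It stood at 12.41 CPM in heated cells at 5 h (95% Poisson interval 9.84 to 15.27), against 57.43 CPM in 37 °C cells of that time (31.4 to 96.36). At 10 h it stood at 11.23 CPM in heated cells (5.604 to 20.09), against 46.17 CPM in 37 °C cells (19.93 to 90.97). These 2 heated groups had the lowest levels of the 10 groups. At 15 h the order was the other way round, with 55.19 CPM in heated cells (38.86 to 76.07) and 31.45 CPM in 37 °C cells (17.2 to 52.77), and the intervals overlapped.

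Before heating and 1 h after it the heated arm was also the lower one. At 1 h the level was 34.48 CPM in heated cells (19.3 to 56.86), against 68.23 CPM in 37 °C cells (44.97 to 99.28). At -1 h, with neither arm heated, it was 79.84 CPM in the 45 °C arm (45.64 to 129.7) and 123.4 CPM in the 37 °C arm (93.19 to 160.2). These were the highest levels of each arm.

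**Figure D1:**
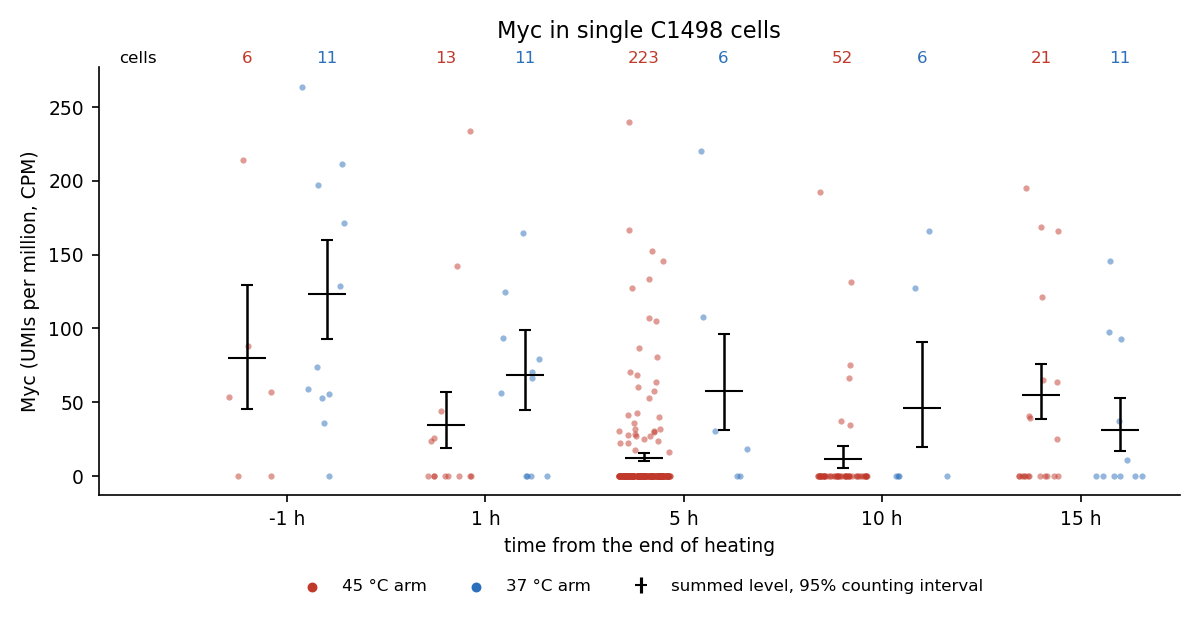
Myc level of each cell (points; the cell's UMIs scaled to a total of 1000000) by time from the end of heating, for the 45 °C arm (left of each pair) and the 37 °C arm (right), with the summed level of each group and its 95% Poisson interval in black and the number of cells above. Most heated cells at 5 and 10 h lie at 0, with a few up to 240.3 CPM; in the heated group at 5 h, 84.3% of cells had no Myc UMI.

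Set in order, the 10 levels formed a gradual series except for a step above the heated cells of 5 and 10 h. From high to low, the first 5 were the control cells of -1 h, the 45 °C arm of -1 h, the control cells of 1 h, the control cells of 5 h and the heated cells of 15 h. The control cells of 10 h, the heated cells of 1 h and the control cells of 15 h came next, and the heated cells of 5 h and of 10 h were last. Of the 9 neighbouring pairs, whose sign is fixed by the sorting, the counting interval of the log2 ratio held 0 in 8. The ninth was 37 °C at 15 h over 45 °C at 5 h (1.39, 0.419 to 2.18).

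At 5 and 10 h a smaller share of the heated cells had any Myc molecule. At 5 h a Myc UMI was found in 35 heated cells (15.7%, exact binomial interval 11.18 to 21.15), against 4 of 6 cells at 37 °C (66.67%, 22.28 to 95.67). At 10 h it was found in 6 of 52 heated cells (11.54%, 4.354 to 23.44), against 2 of 6 cells at 37 °C (33.33%, 4.327 to 77.72). With so few control cells the 37 °C shares are known within wide limits, and at 10 h the 2 intervals overlapped.

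A share depends on how deeply a cell was read, since 1 UMI in the median heated cell is worth 34.4 CPM at 5 h and 53.4 CPM at 10 h, against 27.3 and 33.8 CPM in the median 37 °C cell of those times. All cells were therefore also thinned to 5000 UMIs, which left out 1 heated cell of 5 h and 5 heated cells of 10 h. A Myc UMI then remained in 10 heated cells at 5 h (4.505%, 2.181 to 8.128), against 17 of all 51 unheated cells (33.33%, 20.76 to 47.92). At 10 h it remained in 2 of 47 heated cells (4.255%, 0.5196 to 14.54). At this depth the intervals of both heated groups lay below that of all unheated cells. They overlapped those of the 6 control cells of each time, 2 of which kept a UMI at 5 h (33.33%, 4.327 to 77.72) and 1 at 10 h (16.67%, 0.4211 to 64.12). Thinned to 10000 UMIs instead, which leaves out more shallow cells, the shares were 7.442% of heated cells at 5 h (4.313 to 11.8) and 15% at 10 h (5.71 to 29.84), against 33.33% of 37 °C cells at both times (4.327 to 77.72). At that depth the 6 unheated groups had shares of 30% to 45.45%, each with an interval that overlapped that of heated cells at 10 h. The unheated cells were not pooled at 10000 UMIs, so a separation at 10 h was not shown at that depth. Unthinned, the heated share at 10 h (11.54%, 4.354 to 23.44) also lay below that of all unheated cells (62.75%, 48.08 to 75.87). That comparison is not corrected for depth.

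At the other times the intervals of the shares thinned to 5000 UMIs overlapped widely. At -1 h, with no cell heated, a UMI remained in 1 of 6 cells of the 45 °C arm (16.67%, 0.4211 to 64.12), against 6 of 11 cells at 37 °C (54.55%, 23.38 to 83.25). At 1 h a UMI remained in 2 of 13 heated cells (15.38%, 1.921 to 45.45), against 4 of 11 cells at 37 °C (36.36%, 10.93 to 69.21). At 15 h it remained in 5 of 21 heated cells (23.81%, 8.218 to 47.17), against 3 of 11 cells at 37 °C (27.27%, 6.022 to 60.97). Unthinned, the shares at 15 h were 42.86% of heated cells and 45.45% of 37 °C cells. The 15 h shares thus lay close together while the summed level was higher in the heated group, and both statements rest on few cells.

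Cells with much Myc RNA were found in each of the heated groups. Over 100 CPM stood 2 of 13 cells at 1 h, 8 at 5 h (3.587%), 2 of 52 at 10 h and 4 of 21 at 15 h after heating, against 13 of the 51 unheated cells. The highest heated cell of 5 h had 240.3 CPM, and the highest unheated cell, at 37 °C and -1 h, had 263.8 CPM. In the heated cells of 5 h, 16 cells had 1 Myc UMI, 8 had 2, 4 had 3, and the remaining 7 had 4 to 11. The highest cell alone held 13.02% of the 84.5 Myc UMIs of that group. Thinned to 5000 UMIs, the variance over the mean of Myc was 1.29 in these cells at a mean of 0.054 UMI. Over 6 other genes, all with higher means, it ran from 0.89 (Max, mean 0.171) to 1.81 (Ncl, mean 10.315). The genes nearest in mean, Max and Mga (1.11 at a mean of 0.293), had lower values than Myc. This measure depends on the mean, so it does not rank Myc among genes of other levels.

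**Figure D2:**
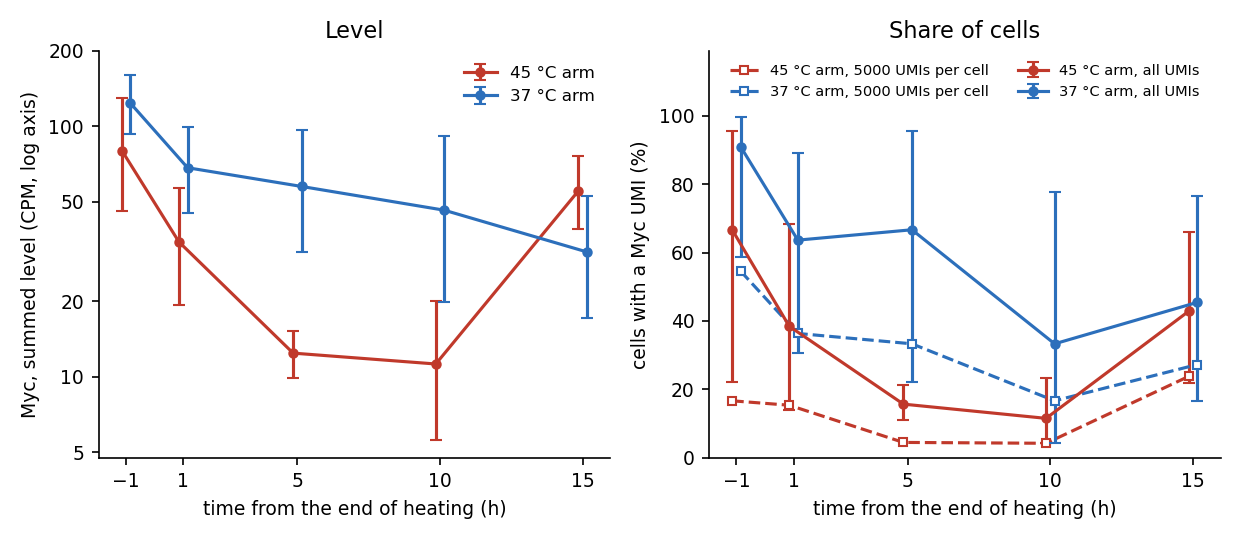
Left, summed Myc level (CPM, log axis) against hours from the end of heating for the 45 °C and the 37 °C arm, with 95% Poisson intervals. Right, percentage of cells with a Myc UMI, from all UMIs (filled, with exact binomial intervals) and after thinning to 5000 UMIs per cell (open); the heated arm is lowest at 5 and 10 h in both panels, and at 15 h the arms lie close in share.

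Relative to control cells of equal time, Myc stood 4.79-fold lower in heated cells at 5 h, a log2 ratio of -2.26 with an interval from -3.04 to -1.29. At 10 h it stood 4.18-fold lower (-2.06, -3.49 to -0.522), on 11 UMIs in heated cells and 8 in 37 °C cells, too few together to pass the filter on low counts given below. At 1 h it stood 1.95-fold lower (-0.96, -2 to -0.023). At 15 h it stood 1.72-fold higher, with 0 inside the interval (0.78, -0.11 to 1.81). The pair before heating differed by -0.60 with 0 inside the interval (-1.53 to 0.195).

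The typical gene differed far less. The median ratio of all measured genes (at least 20 UMIs in both groups together and 10 CPM in 1) was 0.01 before heating, and -0.14, -0.23, 0.00 and -0.02 at the 4 times after it. Relative to that median, Myc stood at -2.03 at 5 h and -2.07 at 10 h. At 5 h, 0.935% of 7594 measured genes had a lower ratio than Myc. At 15 h, 92.4% of 6340 measured genes had a lower one.

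Summing all 6 unheated groups gave more control cells, though not of equal time, with Myc at 70.6 CPM (59.19 to 83.56) in 51 cells. This pool includes the -1 h groups of both arms, which had the highest levels. The 34 control cells of 37 °C picked after -1 h stood lower, at 50.09 CPM (38.49 to 64.08). Over the pool of all 51 cells the log2 ratio was -0.99 at 1 h (-1.91 to -0.261; -1.76 without heated cell 13), -2.51 at 5 h (-2.93 to -2.11), -2.59 at 10 h (-3.69 to -1.77) and -0.34 at 15 h (-0.921 to 0.179). The 4 ratios share the unheated cells. Over the pool, 0.196% of 7639 measured genes stood below Myc at 5 h. At 15 h the sign was opposite to that against the 37 °C cells of the same time, which had the lowest Myc level of the unheated groups.

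The 37 °C arm had itself less Myc at later times. Over its own group at -1 h the log2 ratio was -0.84 at 1 h (-1.57 to -0.167), -1.07 at 5 h (-2.06 to -0.239), -1.34 at 10 h (-2.7 to -0.341) and -1.93 at 15 h (-2.93 to -1.11), 4 comparisons that share that group. Without control cell 2 of 5 h the second was -2.20, and without control cell 5 of 10 h the third was -2.35, so the order of the later times rests on single cells. Among all measured genes 0.229% had a lower ratio than Myc at 15 h. Myc was thus highest at -1 h in cells that were never heated, and what accompanied the lower levels later was not tested.

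Within the heated arm the level was lower at 5 h than at 1 h and higher again at 15 h. At 5 h the log2 ratio over the heated cells of 1 h was -1.52 (-2.29 to -0.583), and at 10 h over 5 h it was -0.08 (-1.19 to 0.776). At 15 h it was 2.17 over 5 h (1.56 to 2.74) and 2.25 over 10 h (1.3 to 3.42). The higher level at 15 h kept its sign with any single cell left out, between 1.84 and 2.34 over 5 h and between 1.92 and 2.82 over 10 h. Of all measured genes, 98.4% had a lower ratio than Myc at 15 h over 5 h.

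Single cells decided how large some of these values were. The 6 control cells at 5 h had 9, 3, 1, 1, 0 and 0 Myc UMIs, and without the cell with 9 (cell 2) the 37 °C level at 5 h was 24.64 CPM and the ratio at 5 h was -1.13. At 10 h, 2 of the 6 control cells had UMIs, 5 and 3, and without cell 5 the 37 °C level was 20.95 CPM and the ratio -1.06. Without heated cell 19 of 10 h the heated level there was 7.372 CPM. Without heated cell 13 of 1 h the level was 19.75 CPM, the ratio at 1 h was -1.73, and that of 5 h over 1 h was -0.76. Without cell 6 of the 45 °C arm at -1 h its level was 44.19 CPM and the ratio before heating was -1.39.

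The sign of each ratio of heated over 37 °C cells of the same time held with any 1 cell left out. The range was -2.64 to -1.13 at 5 h, -2.63 to -1.06 at 10 h and 0.45 to 1.27 at 15 h. Over all unheated cells, where no single control cell weighs much, the range at 5 h was -2.69 to -2.41. That pool includes the -1 h groups, which had the highest levels. Of the heated cells at 15 h, 4 had fewer than 10000 UMIs and all 4 had no Myc UMI.

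**Figure D3:**
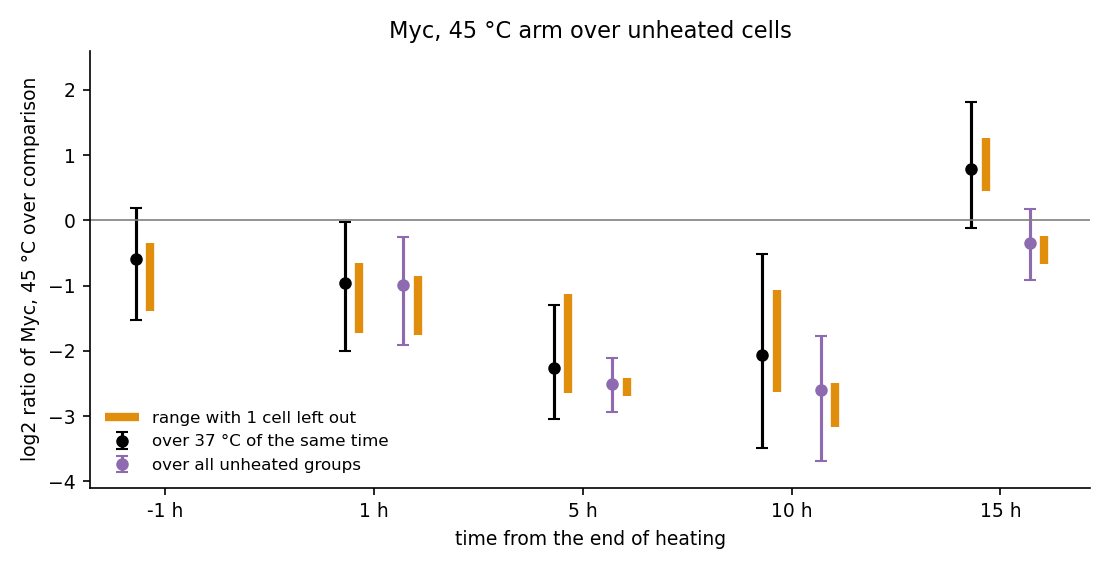
Log2 ratio of Myc in the 45 °C arm over the 37 °C cells of the same time (black) and over all 51 unheated cells (purple), with 95% counting intervals; orange bars give the range with any 1 cell left out. At 5 and 10 h both ratios and all left-out values lie below -1, and at 15 h the 2 denominators give opposite signs.

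Of the other genes of the MYC family, Mycn and Mycl had no UMI. A count of 0 in 360 cells allows up to 0.833% of cells with a UMI and a level up to 0.278 CPM for each. Myc was thus the member of the family with RNA detected in these cells.

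Max, the obligate partner of MYC, stood below the range of the unheated groups at all 4 times after heating. Its level was 55.16, 42.52, 60.72 and 52.2 CPM in heated cells at 1, 5, 10 and 15 h, against 61.53 to 94.81 CPM over the 6 unheated groups. Over all unheated cells the log2 ratio at 5 h was -0.80 (-1.1 to -0.502), and at 10 h, where the level nearly touched the unheated range, -0.27 (-0.739 to 0.167). Standing below all 6 unheated groups was common, with 18.2%, 18.8%, 15.4% and 12.5% of measured genes at 1, 5, 10 and 15 h.

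The MXD proteins and MNT pair with MAX in place of MYC and repress at the same sites. Mxd1 stood above all unheated groups at the 4 times after heating, at 18.39, 14.1, 7.144 and 8.949 CPM in heated cells at 1, 5, 10 and 15 h, against 0 to 5.771 CPM in unheated groups. At 5 h, where it had 96 UMIs against 4 in all unheated cells, its log2 ratio over the unheated cells was 2.59 (1.35 to 4.66). At the other times it had 6 to 8 UMIs in the heated cells, too few to pass the filter on low counts. At 10 h the interval over the unheated cells held 0 (1.70, -0.204 to 3.99). Of all measured genes 8.3%, 7.3%, 19.5% and 15% stood above all 6 unheated groups at these times, and Mxd1 is among these genes at 5 h only. Mxd3 went the other way at 5 h, with 6.682 CPM in heated cells and 36.92 CPM in 37 °C cells, a log2 ratio of -2.51 (-3.5 to -1.23). At 10 and 15 h Mxd3 stood at 30.62 and 34.3 CPM in heated cells, inside the unheated range of 17.69 to 69.25 CPM.

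The direction of the network as a whole depended on the control cells used. Over all unheated cells at 5 h, 7 of the 9 members, of 12, that passed the filter on low counts stood lower and 2 higher (Mxd1 and Zbtb17), with a median of -0.43, beside -0.23 and 71.3% lower over all genes. Mnt (-0.88, -1.45 to -0.274) and Mlxip, a partner of MLX in glucose sensing (-1.03, -1.55 to -0.482), were among the lower. Over the 37 °C cells of 5 h instead, 5 stood higher and 4 lower with a median of 0.42, but Mxd1, Mnt and Zbtb17 had no UMI in those 6 cells, and with these at a floor of 3 counts the median was -0.14. The background of lower genes in that comparison was 63.2%. Mga, a MAX partner with repressive function, and Mlx, the partner of MLXIP, also stood lower over all unheated cells (-0.43, -0.715 to -0.136, and -0.38, -0.671 to -0.0736). Mxd4 (-0.18) and Zbtb17, through which MYC represses (0.27), had intervals that held 0, and Mxi1 had too few UMIs.

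Among genes that act on Myc itself, the 3 RNA-binding proteins of the TTP family stood above all unheated groups in heated cells at 5 h, as did 5 of 16 measured regulators (with Elavl1 and Pim1) and 7.3% of all genes, while 2 of 16 stood below them (Ctcf and Huwe1), beside 18.8% of all genes. Zfp36, which binds AU-rich elements of short-lived RNAs and promotes their decay, stood at 39.58 and 41.84 CPM in heated cells at 5 and 10 h, against 12.03 CPM in all unheated cells. The log2 ratios were 1.69 (1.11 to 2.4) and 1.79 (1.03 to 2.6). In the 37 °C cells of 5 h alone it stood at 32.82 CPM, so against that group the ratio was 0.19 (-0.726 to 1.5), with a value of 0.90 without control cell 6 and -0.08 without control cell 2. Zfp36l1, of the same family, stood at 66.31 CPM in heated cells at 5 h and 47.97 CPM at 10 h, against 28.72 to 51.94 CPM over the unheated groups.

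Its relative Zfp36l2 stood at 121.4, 170.4 and 151.4 CPM in heated cells at 5, 10 and 15 h, against 50.67 to 104.8 CPM over the unheated groups. Over the 37 °C cells of the same time the log2 ratio was 0.60 at 5 h (-0.0141 to 1.38), 1.36 at 10 h (0.548 to 2.45) and 1.07 at 15 h (0.496 to 1.7). At 10 and 15 h, 11.9% and 3.99% of measured genes stood at least 2-fold higher. Before heating the 45 °C arm was already the higher one, with 104.8 CPM, against 50.67 CPM in the 37 °C arm (1.05, 0.123 to 1.97), a ratio about as large as that at 15 h.

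The kinases that stabilise MYC protein differed from each other. Pim2 stood at 16.33 CPM in heated cells at 10 h, against 51.94 CPM in 37 °C cells (-1.70, -2.93 to -0.309; -2.47 without heated cell 10 and -0.96 without control cell 2 of that time) and 38.19 to 104.8 CPM over the unheated groups. Pim1 stood at 41.84 CPM in heated cells at 10 h, against 9.98 to 16.41 CPM over the unheated groups, with a log2 ratio of 1.67 over all unheated cells (0.926 to 2.46). Both are serine/threonine kinases known to cooperate with MYC in mouse lymphoma.

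Of the factors acting at the Myc locus, Ctcf, which organises chromatin loops there, stood at 77.32 CPM in heated cells at 5 h, against 168.2 CPM in 37 °C cells (-1.14, -1.58 to -0.627) and 133.9 CPM in all unheated cells (-0.79, -1.01 to -0.572). Pvt1, the long noncoding RNA gene that starts 47611 bases downstream of Myc on the same strand, stood at 4.597 to 10.44 CPM in heated groups and 2.247 to 17.31 CPM in unheated ones, and its ranges overlapped. Notch1, which drives Myc in T cell leukemia, had 0 UMIs.

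Fbxw7, the ubiquitin ligase subunit that marks MYC protein for degradation, stood at 9.193 CPM in heated cells at 1 h and 24.38 CPM at 5 h, against 38.18 CPM in all unheated cells (-1.89, -3.97 to -0.636, or -2.63 without heated cell 7 of 1 h; and -0.65, -1.05 to -0.23). At 10 h it stood higher, at 59.19 CPM (0.64, 0.11 to 1.15). Huwe1, another ubiquitin ligase of MYC, stood below all unheated groups at the 4 times, at 136.8, 131.5, 120.4 and 122.3 CPM in heated cells, against 146.6 to 184.7 CPM. So did 18.2%, 18.8%, 15.4% and 12.5% of all measured genes at these times. Hnrnpd, an AU-rich element binding protein, was lower in heated cells at 10 h than in 37 °C cells, with a log2 ratio of -0.63 (-1.09 to -0.111). Elavl1, which binds and stabilises AU-rich RNAs, stood at 111.2 CPM in heated cells at 5 h, against 79.23 CPM in all unheated cells (0.48, 0.231 to 0.745). Skp2, a ubiquitin ligase subunit, Aurka, a kinase that shields MYC proteins from degradation, and Cdk9, the elongation kinase, had log2 ratios of -0.76, -0.45 and -0.25 over the unheated cells with intervals below 0, beside a median of -0.23 over all genes. Over the 37 °C cells of 5 h alone Aurka stood higher (1.76, 0.21 to 5.13), and the intervals of Cdk9 (0.46, -0.175 to 1.26) and Skp2 (-0.16, -1.54 to 2.36) held 0. Those control cells had themselves little Aurka, at a log2 ratio of -2.27 over the 37 °C cells of -1 h. Myb, Stat5b and Usp28 had intervals that held 0 at 5 h, and Igf2bp1 had 2 UMIs in all cells. Over 37 °C cells, Stat5b stood lower at 1 h (-1.52, -3.07 to -0.265), and Myb higher at 10 h on 1 control UMI (2.02, 0.0124 to 7.93). Of the 16 of 19 regulators that passed the filter, 7 stood higher and 9 lower at 5 h against 37 °C cells, and at 10 h 9 stood higher and 7 lower, beside 36.8% and 50.5% of all measured genes higher.

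**Figure D4:**
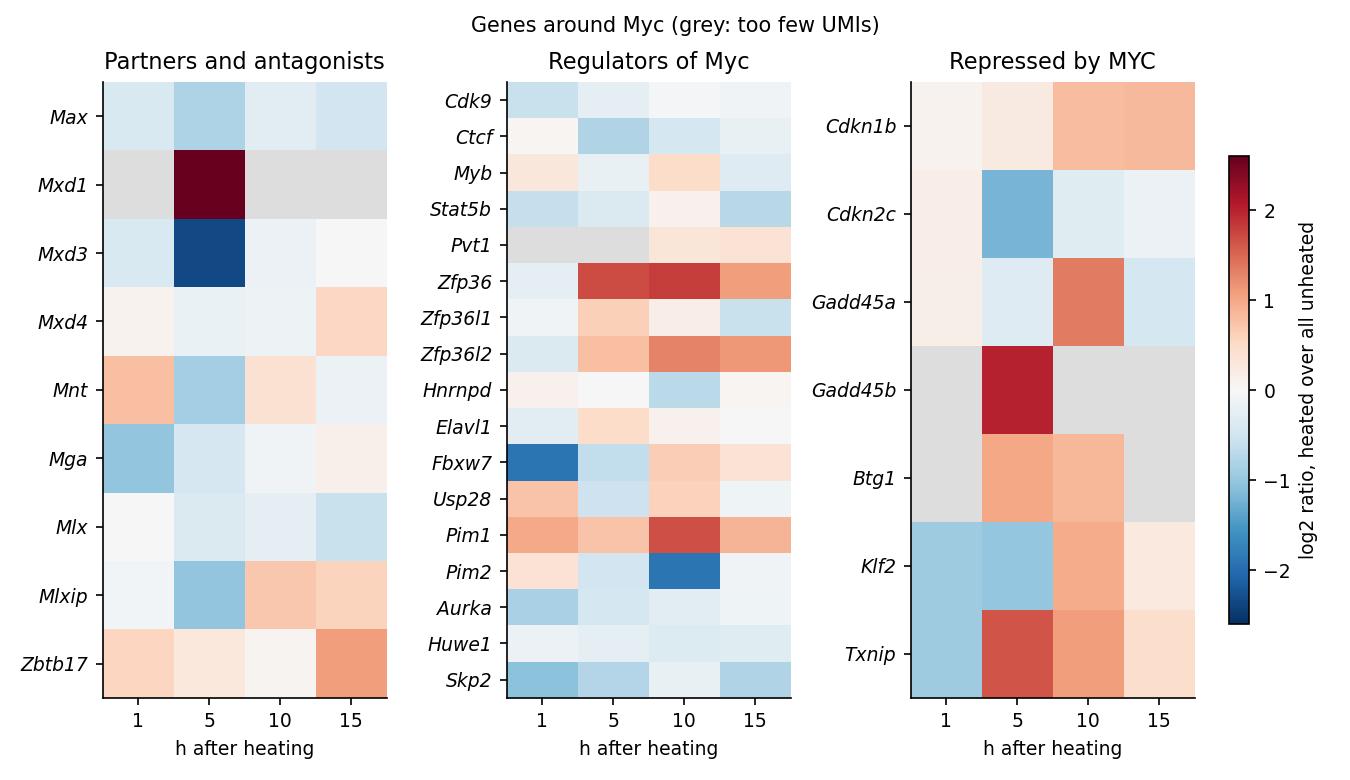
Log2 ratio of heated over all 51 unheated cells (blue lower, red higher; grey, too few UMIs) at 1, 5, 10 and 15 h for partners and antagonists of MYC, regulators of Myc and genes repressed by MYC. Mxd1 is high and Mxd3 low at 5 h, Zfp36 and Zfp36l2 are high at 5 and 10 h, and Pim2 is low at 10 h; the 4 columns share the unheated cells.

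A list of 53 genes known to be induced by MYC (ribosome assembly, translation, nucleotide and one-carbon metabolism, glycolysis, cell cycle) stood low at later times than Myc did. Against 37 °C cells of the same time, 27 of the 53 members that passed the filter stood lower at -1 h and 27 of 51 did at 1 h. At 5 h it was 36 of 53, at 10 h 45 of 52 and at 15 h 46 of 53. Over all measured genes of these times 49%, 63%, 63.2%, 49.5% and 51.8% stood lower. The list's share was thus near the background up to 5 h and above it at 10 and 15 h.

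The medians showed the same. The list median was -0.31 at 5 h, beside -0.23 over all genes, -0.43 at 10 h beside 0.00, and -0.35 at 15 h beside -0.02. With any single cell left out, between 42 and 47 members stood lower at 10 h and between 44 and 50 at 15 h, and without cells under 10000 UMIs 44 and 46 did. Members at least 2-fold lower numbered 5 at 5 h (15.2% of all genes), 11 at 10 h (7.21%) and 4 at 15 h (2.18%). Members at least 2-fold higher numbered 0 at each of these times, beside 6.22%, 11.9% and 3.99% of all genes. Counting error weighs more on genes with few UMIs, and all measured genes were not matched to the list in their UMIs.

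As a sum, the list made up 20185, 19774, 15254 and 16357 CPM in heated cells of 1, 5, 10 and 15 h, against 19767 to 21967 CPM over the 6 unheated groups. At 10 h, 34 of 53 members stood below all 6 unheated groups and at 15 h 24 of 53, against 15.4% and 12.5% of all measured genes. At 1 and 5 h the counts were 14 and 11 of 53, against 18.2% and 18.8%. Myc was lowest at 5 and 10 h and the list at 10 and 15 h. At 5 h Myc was thus low with the list near the background, and at 15 h Myc stood near its unheated level with the list low. Whether the listed genes respond to Myc in these cells, and whether their course is linked to that of Myc, was not tested.

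The members with the most UMIs showed small shifts. Ncl (nucleolin) stood at 2167 CPM in heated cells at 5 h, against 2448 CPM in 37 °C cells, and at 1368 against 1985 CPM at 10 h (-0.54, -0.71 to -0.363). Npm1 (nucleophosmin) stood at 2123 against 1963 CPM at 5 h and at 1537 against 1997 CPM at 15 h (-0.38, -0.509 to -0.248). Eif5a, a translation factor, stood at 2049 against 1947 CPM at 5 h and at 1366 against 1656 CPM at 15 h (-0.28, -0.419 to -0.135). At 5 h Npm1 and Eif5a had intervals that held 0.

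The extremes were larger. At 5 h the lowest ratio was that of Rrp12, a ribosome assembly factor, with 32.31 CPM in heated cells and 69.74 CPM in 37 °C cells (-1.15, -1.82 to -0.304), and the highest that of Imp4, a nucleolar processing factor, with 106.1 and 59.48 CPM (0.84, 0.131 to 1.77). At 10 h the lowest was Hk2, the hexokinase that starts glycolysis, with 9.185 CPM in heated cells and 92.34 CPM in 37 °C cells (-3.30, -4.69 to -2.06). At 15 h the lowest was Mthfd2, of mitochondrial one-carbon metabolism, with 92.47 CPM in heated cells and 242.6 CPM in 37 °C cells (-1.39, -1.87 to -0.928). Hk2 and Mthfd2 were named after their values were seen, as the lowest member of their time.

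The cell cycle members Ccnd2 and Cdk4 differed. Ccnd2, cyclin D2, stood at 116.9 CPM in heated cells at 10 h, against 323.2 CPM in 37 °C cells (-1.48, -1.95 to -0.986). Cdk4, the kinase it activates, stood at 244.9 against 317.4 CPM (-0.38, -0.802 to 0.0761), within counting error. Cad, which starts pyrimidine synthesis, stood at 67.36 against 167.4 CPM (-1.33, -1.96 to -0.63).

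**Figure D5:**
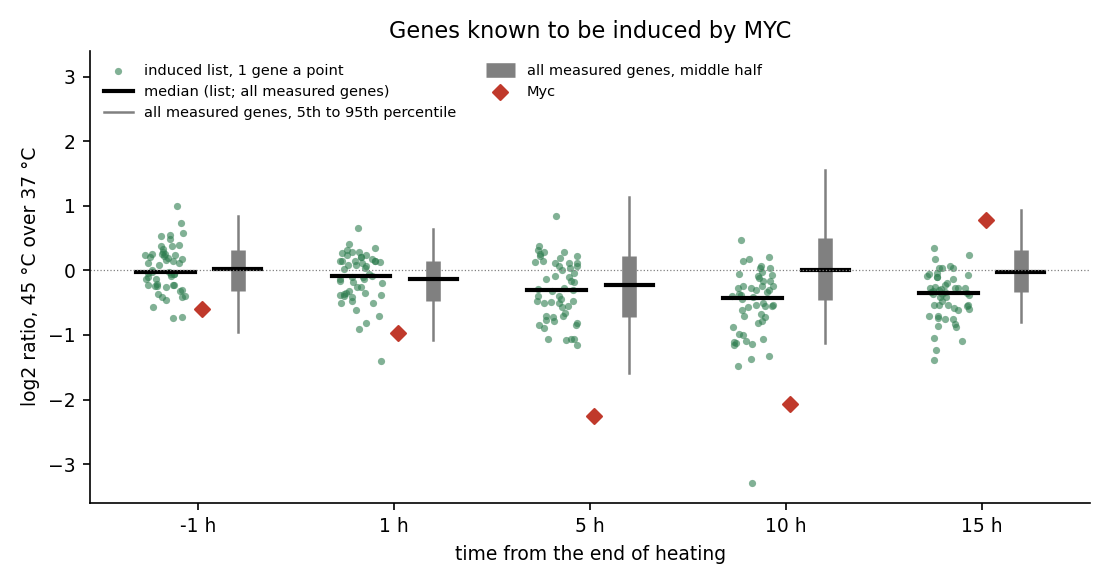
Log2 ratio of 45 °C over 37 °C cells at each time for the 53 genes known to be induced by MYC (green points, black median), beside all measured genes (grey: thin line, 5th to 95th percentile; thick bar, middle 50%; black line, median) and Myc (red diamond). The list lies near all genes up to 5 h and below them at 10 and 15 h; Myc lies low at 5 and 10 h and high at 15 h.

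The sites that MYC and MAX bind carry the letters CACGTG, which read the same on both strands. In the RefSeq promoter windows of build GRCm38.p6, 44 of the 53 induced genes had a window, and 10 of these (22.7%) held CACGTG in the 250 bases before an annotated start, against 6.86% of 27025 genes. At least 2 copies were held by 3 of the 44 genes, Cdk4, Eif4e and Ldha (6.82%, against 0.5% of all genes). The 2 stretches below show the spacing of the copies in Cdk4 and Ldha before the most upstream start of each gene, both on the plus strand, 5′ to 3′, with CACGTG in capitals. Cdk4 (chr10:127063285-127063534) has 4 copies and Ldha (chr7:46845554-46845803) has 2.
Cdk4: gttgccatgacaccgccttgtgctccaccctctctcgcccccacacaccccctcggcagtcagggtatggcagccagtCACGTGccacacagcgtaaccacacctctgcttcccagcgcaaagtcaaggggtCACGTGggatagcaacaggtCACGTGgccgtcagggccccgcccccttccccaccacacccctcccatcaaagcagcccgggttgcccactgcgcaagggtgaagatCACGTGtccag
Ldha: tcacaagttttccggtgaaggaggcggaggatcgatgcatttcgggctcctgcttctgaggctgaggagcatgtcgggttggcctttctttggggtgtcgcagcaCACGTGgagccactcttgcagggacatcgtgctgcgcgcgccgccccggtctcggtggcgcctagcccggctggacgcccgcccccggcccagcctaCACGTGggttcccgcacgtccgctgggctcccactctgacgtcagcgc

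Ldha, lactate dehydrogenase, stood at 850.3 CPM in heated cells at 5 h, against 681.7 CPM in 37 °C cells (0.32, 0.0977 to 0.552), and at 516.1 against 764.7 CPM at 10 h (-0.56, -0.84 to -0.273). Cdk4 stood at 258.9 against 225.6 CPM at 5 h, a log2 ratio of 0.19 that was -0.03 without control cell 1. At 5 h neither gene stood below the 37 °C cells in summed level. They were picked after their values were seen and do not stand for the 10 list genes with CACGTG. Of the others, Eif4a1, Ran and Phb stood below all 6 unheated groups at 5 h, and Nme1 above them. Of all measured genes 18.8% and 7.3% did so. Whether the levels of these genes were linked to that of Myc was not tested. A match of these letters describes the sequence and shows no binding.

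Few genes known to be repressed by MYC were read deeply enough. Of 12 members, 7 were measured at 5 h against 37 °C cells, 4 of them higher and 3 lower (63.2% of all genes lower), with a median of 0.57 that became 0.15 with Gadd45b, at 0 in the 37 °C cells, set to the floor. Txnip, an inhibitor of glucose uptake, stood at 169.5 CPM in heated cells at 5 h, against 86.15 CPM in 37 °C cells (0.94, 0.357 to 1.67), and at 115.3 against 63.48 CPM at 10 h (0.80, -0.0327 to 1.9). Cdkn1b, the cell cycle inhibitor p27, stood at 36.79 against 12.31 CPM at 5 h (1.36, 0.0132 to 3.86), and without control cell 2 the ratio was 2.32. Klf2, a transcription factor of quiescent lymphocytes, went the other way at 5 h, with 18.28 CPM in heated cells and 53.33 CPM in 37 °C cells (-1.60, -2.38 to -0.601). At 10 h, 4 of 6 members that passed the filter stood above all 6 unheated groups (Cdkn1b, Gadd45a, Klf2 and Txnip; 19.5% of all genes), among them Klf2 at 71.44 CPM in heated cells, against 24.71 to 53.33 CPM over the unheated groups. Cdkn2c, an inhibitor of CDK4, stood low at 5 h over all unheated cells (-1.20, -1.71 to -0.662), and Btg1 and Gadd45b stood high (1.00, 0.235 to 1.97, and 2.01, 0.946 to 3.6). Cebpa had 0 UMIs, and Cdkn1a, Cdkn2b, Ndrg1 and Btg2 had 2 to 40 UMIs in all 360 cells.

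Myc is also an immediate early gene, one that growth signals switch on without new protein. At 5 h, when Myc stood low, Junb stood at 120.8 CPM in heated cells, against 26.66 CPM in 37 °C cells (2.18, 1.17 to 3.74), and Ier2 at 150.5 against 57.43 CPM (1.34, 0.636 to 2.27). Over all unheated cells their ratios were smaller, 1.65 and 1.11, and over the 45 °C arm of -1 h they were 0.95 and 0.56. Egr1 stood at 15.64 CPM in heated cells at 5 h and had no UMI in unheated cells, while Fos, Fosb and Jun had 1 to 31 UMIs in all cells.

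The course of Myc over the 10 groups was compared with that of 4655 genes with at least 100 UMIs in all and 50 CPM in 1 group, by the Pearson correlation of log2 CPM over 10 groups that share no cells. By this measure the genes most like it were Golgb1 (r = 0.904), Edem3 (0.897), Inpp4a (0.896), Foxp1 (0.887) and Lin28b (0.886), beside a median of 0.128 over all genes. By Spearman correlation, which uses ranks only, these genes had rho of 0.697 (Foxp1) to 0.842 (Edem3). They then took places from 16 (Edem3) to 130 (Foxp1), so which genes are most like Myc depends on the measure. Foxp1, a forkhead factor of lymphocytes, stood at 164.6 and 162.8 CPM in heated cells at 5 and 10 h, against 229.5 to 443.9 CPM over the unheated groups. Lin28b, which blocks let-7 maturation, stood at 15.27 and 15.31 CPM, against 24.71 to 57.71 CPM. Leaving out 1 predicted gene with no proper name, the 3 most unlike were Pcf11 (-0.888), Hsph1 (-0.865) and Snhg1 (-0.862), and Hsph1, a heat shock chaperone of the HSP110 family, stood at 1838 and 1409 CPM in heated cells at 5 and 10 h, against 156.3 to 365.1 CPM in unheated groups. With 10 points, of which 2 heated groups lie apart, these values describe the groups and carry no test.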

How the data were processed

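Single C1498 cells were read as 360 libraries in 10 groups named by temperature and time. The table deposited by the authors gives each gene's estimated count of UMIs in each cell, without scaling. Of its values above 0, 5.3% were not whole (no tolerance) and held 25.9% of UMIs. For Myc 1 of 360 values, 4.5, was not whole. STAR, an aligner, and the build mm10 stand in the list of tools and builds per the submitters' processing notes. The counter, its annotation and any cell filter were not given in the sources used here. PCR reads carried molecular barcodes per the labels' protocols.

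UMIs of a group's cells were summed and divided by the group's total (CPM). For log2 ratios, sums were rounded to whole UMIs and 0.5 UMI was added. Intervals at 95% are exact Poisson for levels and exact binomial (Clopper-Pearson) for ratios and shares, computed with scipy 1.17.1 and numpy 2.4.6 in Python 3.11.15. They cover counting error only. A gene was measured with at least 20 UMIs in both groups together and 10 CPM in 1 of them. A floor is 3 counts over the group. Each group counted as 1 sample because no culture is named, so no p-value was computed. Cells were thinned to 5000 UMIs by a seeded draw. No doublet call was made, since cells were picked under the microscope per the labels. No cells had identical values. The gene Myc, the gene lists and the named genes were chosen with earlier results of these data known. Named were all members of the network, regulator and repressed lists (1 regulator is not reported here), immediate early genes, the genes most like and unlike Myc, and of the induced list the 3 with the most UMIs and the largest and smallest ratio at 5 h. Hk2, Mthfd2, Ccnd2, Cdk4, Cad, Ldha, Eif4a1, Ran, Phb and Nme1 were added after their values were seen. The ratio code was tested on simulated counts. Alternatives were other scalings, pseudocounts, thinning depths, filters, denominators and each cell left out.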

Additional observations from a re-analysis of the deposited data

Results flagged for a closer look

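In 2 groups of 6 cells the Myc UMIs of 1 cell stood far from the other 5. Cell 6 of the 45 °C arm at -1 h had 9 Myc UMIs, where the next cell had 3, a gap of 0.667 of the group's range against a limit of 0.625. Cell 2 of the 37 °C group at 5 h had 9 Myc UMIs, again with 3 in the next cell and a gap of 0.667. Scaled to each cell's total the gaps were 0.588 and 0.511, under the limit. For normally spread values chance passes this limit in about 1 of 20 groups, and for sparse UMI counts that rate was not measured. Without cell 2 the log2 ratio of heated over 37 °C cells at 5 h was -1.13 instead of -2.26.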

How the results depend on the processing

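The log2 ratio of Myc in heated over 37 °C cells kept its sign at the 5 times under other scalings, added UMIs, rounding and depth filters, and also with the highest cell of both groups left out (-1.30 at 5 h, -1.63 at 10 h; chosen after seeing the data). The exception was the denominator of all unheated cells, which gave -0.34 in place of 0.78 at 15 h; no such value exists for -1 h. With 1 cell left out the ratio ran from -1.39 to -0.35 at -1 h, -1.73 to -0.66 at 1 h, -2.64 to -1.13 at 5 h, -2.63 to -1.06 at 10 h and 0.45 to 1.27 at 15 h. The level ran from 44.19 to 94.94 CPM in the 45 °C arm at -1 h, 19.75 to 37.93 at 1 h, 10.87 to 12.54 at 5 h, 7.37 to 11.74 at 10 h and 43.6 to 58.9 at 15 h. At 37 °C it ran from 107.7 to 132.4 CPM at -1 h, 54.74 to 76.25 at 1 h, 24.64 to 74.65 at 5 h, 20.95 to 58.49 at 10 h and 21.91 to 37.75 at 15 h. Members of the induced list that stood lower numbered 21 to 30 at -1 h, 25 to 31 at 1 h and 34 to 39 at 5 h. Levels depend on the total they are divided by. With values that are not whole set to 0 they were 16.05 CPM (45 °C, 5 h), 77.31 (45 °C, 15 h) and 162.3 (37 °C, -1 h), and without the 50 genes with the most UMIs 18.54, 80.58 and 171.4 CPM, since both shrink the total. Shares without thinning were 66.67% (45 °C, -1 h), 15.7% (45 °C, 5 h) and 90.91% (37 °C, -1 h), and with 10000 UMIs per cell 15% at 45 °C and 10 h. No paired analysis was possible because the results come from no test and replicate numbers only name cells. Depth limits the comparisons at 5 and 10 h, where the 37 °C groups held 14 and 8 Myc UMIs in 6 cells each and the heated group of 10 h held 11.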

Other observations

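Among the heated cells of 5 h with at least 5000 UMIs, the genes whose thinned counts followed those of Myc most closely were Rn4.5s (Spearman rho 0.203), Bcas2 (0.199), Scd2 (0.198), Ash2l (0.195) and Tmsb4x (0.187), out of 1491 genes. Only 10 of these cells kept a Myc UMI after thinning, and such weak values in sparse counts are no finding. The rho between a cell's total and its Myc UMIs was 0.278 in the heated cells of 5 h and ran from -0.265 (37 °C, 5 h) to 0.758 (37 °C, 1 h) over the 10 groups of 6 cells or more, with no common sign.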
